A study of Rattus norvegicus with 119 samples.

Results

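The cells described here are the 66 single cells captured from SU, of 115 single cells in the series. SU is the urethral part of the newborn urogenital tract, with its smooth muscle, the mesenchyme around the urethra and the epithelium, and it was microdissected from female Wistar rats on the day of birth. The members were taken by their labels alone, so no measured value chose them. The other 49 cells came from the ventral mesenchymal pad (VMP), a mesenchyme dissected from the same tract at the same age. Tissue was digested with collagenase (2 mg/mL, 60 min, 37 °C), passed through a strainer, and single cells were caught on a Fluidigm C1 chip, which amplifies the RNA of each cell in a chamber of its own. All SU cells came from 1 pool of tissue, so they are not replicates of the tissue, no test between tissues or among cells was possible, and every value below describes these libraries. The labels state 70 captured and 63 sequenced SU cells and 52 sequenced VMP cells, while 66 SU and 49 VMP cells have counts, so the totals are equal at 115 and 3 columns under SU may be VMP cells. Which ones is not settled, and the lowest SU values, the counts of genes read in all 66 cells, the variable genes and the ratios of SU over VMP are all given under the labels as they stand.

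Fibroblasts of the urethral wall secrete collagens, elastic fibre proteins and small leucine-rich proteoglycans, and they carry receptors for PDGF. Mesenchyme of this kind also sends signals to the overlying epithelium, among them Wnt, BMP, FGF and hedgehog-dependent signals, and takes part in forming the smooth muscle of the urethra.

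The SU cells held between 199849 and 1488320 counts on genes (median 631066) with 3946 to 10057 genes detected (median 6183). Spike-in RNA, added in equal amount to each chamber, took between 3.43% and 29.2% of the counted reads (median 11.4%), and VMP cells were close in depth (median 614376 counts) and spike-in share (median 13.5%). No 2 SU cells had identical columns. Levels are given as CPM, each cell's counts scaled to the same total over genes, and counting intervals are 95% Clopper-Pearson intervals that cover counting error only. Reads were not tagged by molecule, so they are not independent molecules. Gene symbols were at hand for 2995 of 32662 gene IDs, those that the study had called different between SU and VMP, and they hold 17.5% of the SU counts. Named genes are therefore a selection, and their differences between the tissues are not independent evidence of a direction.

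The stromal label was checked with 4 markers. Enpp2 encodes autotaxin, the secreted enzyme that makes lysophosphatidic acid, and lies on chromosome 7 (94480396 to 94563001, Rnor_6.0). It had reads in 65 of 66 SU cells, with a lowest value of 0, a median of 243 and a highest value of 3621 CPM, and the spread was wide. It was under 10 CPM in 11 cells with a read, while 41 cells stood at 100 CPM or more, 16 of them at 10 times that or more. Col4a5, a chain of basement membrane collagen on chromosome X (112769645 to 112983685), was read in all 66 cells, from 0.761 to 1706 CPM with a median of 143. Wnt5a, a secreted ligand of mostly β-catenin-independent Wnt signalling on chromosome 16 (4469468 to 4489860), was also read in all 66, from 3.86 to 1678 CPM with a median of 211. Dcn, the collagen-binding proteoglycan decorin on chromosome 7 (38742051 to 38782323), was the most even and the highest of these markers, from 158 to 10176 CPM with a median of 3245. All 4 markers stood at 10 CPM or more together in 46 cells, and at 100 CPM or more together in 14.

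Enpp2, Col4a5 and Wnt5a separated the SU cells from VMP cells, and Dcn did not. In VMP cells the medians were 0 CPM for Enpp2, 0 for Col4a5 and 1.47 for Wnt5a, with highest values of 1087, 177 and 213 CPM, so the lowest SU cells overlapped with them. The summed cells gave ratios of SU over VMP of 25.7 (23.9 to 27.6) for Enpp2, 18.5 (16.6 to 20.7) for Col4a5 and 18.6 (17.1 to 20.2) for Wnt5a. With every cell thinned to 199849 counts, Enpp2 was read in 59 SU and 12 VMP cells, Col4a5 in 65 and 12, and Wnt5a in 66 and 18. For Dcn the VMP median was 3078 CPM and the ratio of sums was 0.994 (0.986 to 1.00), and both tissues read it in every cell. As these genes were picked as SU or stromal markers with these libraries known, the ratios are a description.

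**Figure D1:**
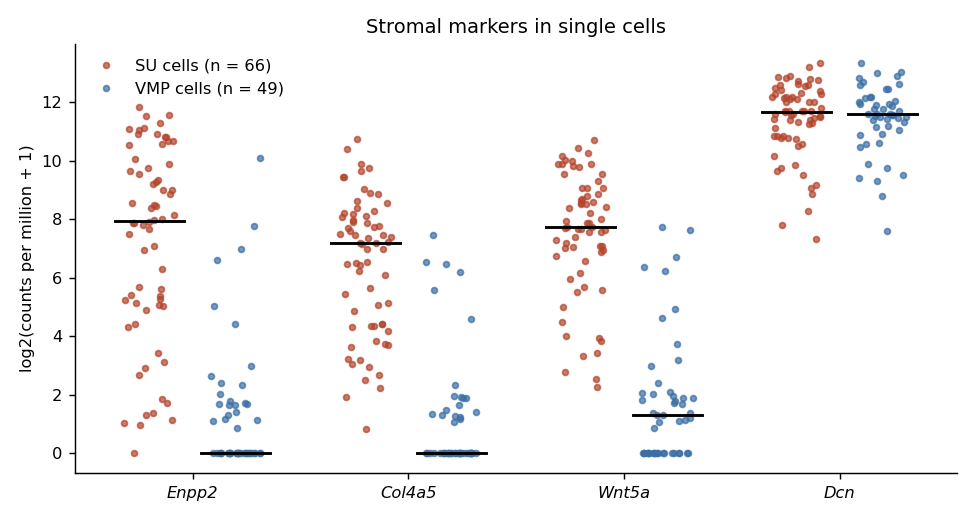
Levels of Enpp2, Col4a5, Wnt5a and Dcn in each SU cell (66 points a gene) and each VMP cell (49 points a gene), as log2(CPM + 1), with the median as a black line. Enpp2, Col4a5 and Wnt5a are widely spread in SU and mostly near 0 in VMP, while the Dcn clouds of the tissues lie at the same height.

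Per kilobase of transcript, the leading named genes of SU cells were those of a fibrous matrix. By median CPM per kilobase they were Lum (2115), Col3a1 (2046), Dcn (1742), Sparc (1661) and Col1a1 (1601), followed by Npm1 (1478), Skp1 (675), Lgals1 (659), Ppic (576) and Hnrnpa1 (575). Lum, Dcn and Sparc encode secreted proteins that bind collagen or shape its fibrils, Col1a1 and Col3a1 the chains of fibrillar collagens, and Ppic a prolyl isomerase. Npm1, Skp1 and Hnrnpa1 act in ribosome assembly, protein turnover and RNA processing, and were about as high in VMP cells, with ratios of summed CPM of 1.02, 0.859 and 0.810.

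Of 43 stromal matrix genes in a list fixed for this work, 26 had an ID, and their summed level ranged from 8923 to 78512 CPM over SU cells (median 43630), against 6954 to 38753 in VMP cells (median 15640). All 26 had reads in SU cells and 12 were read in each of the 66. Col1a1 ranged from 1835 to 29189 CPM (median 9326), Col3a1 from 1595 to 27028 (median 9751), and Sparc from 792 to 8854 (median 3427), so these were high in every SU cell. Lum ranged from 110 to 16085 CPM (median 4262) against a VMP median of 31.4, although 22 VMP cells also reached 100 CPM. Elastic fibre and cross-linking genes followed. Eln, the elastin precursor, had a median of 745 CPM (27.2 to 8375), Lox, which cross-links collagen and elastin, 598 (14.3 to 3588), and the microfibril protein gene Mfap5 79.4 (0 to 1396). Among 10047 genes with 10 CPM in at least 1 tissue, 22.2% were at least 2-fold higher in the summed SU cells and 22.7% in the summed VMP cells, and among the 1704 of these with a symbol 32.3% and 24.5%. Of the 26 matrix genes, 19 were at least 2-fold higher in SU and 1 (Plod2, a collagen lysyl hydroxylase) in VMP, with a median log2 ratio of 1.34 against -0.12 over all genes compared and 0.08 over those with a symbol. Ogn, which encodes osteoglycin, had the ratio 20.8 (19.4 to 22.3), Fbln2 14.9, Fbln5 11.6 and Col14a1 9.59, while Col12a1 (0.786) and Fbln1 (0.782) were slightly lower in SU.

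Receptors and transcription factors of fibroblasts were lower and less even. Pdgfra had a median of 160 CPM (0 to 2102, reads in 63 cells), near its VMP median of 158. Pdgfrb had a median of 42.8 CPM (0 to 6233, reads in 64 cells) against 2.33 in VMP, and a ratio of sums of 12.9. Twist1 and Twist2, regulators of mesenchymal identity, were read in 46 and 51 cells with medians of 8.62 and 21.3 CPM. Thy1 was read in only 13 SU cells and S100a4 in 17, and Meox2 in none, so the fibroblast list as a whole does not describe each cell. Of its 12 matched members of 17, no gene was read in all 66 cells. Of the 10 compared, 5 were at least 2-fold higher in SU and 2 in VMP, against 32.3% and 24.5% of genes with a symbol.

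Only 561 of the 17792 genes with any read in SU (3.15%) had at least 1 read in every one of the 66 cells, yet they took 43.4% of all counts. Of these, 387 were also read in all 49 VMP cells. VMP had 620 genes read in every cell, so each tissue had genes read in all of its cells but not in all of the other's. Of the 2533 genes with a symbol and a read, 86 (3.40%) were in every SU cell. In addition to matrix genes (Col1a1, Col3a1, Sparc, Dcn, Lum, Col6a2, Col12a1, Eln, Vcan, Lox) they included Vkorc1 (231 to 2465 CPM), Ahnak (54.8 to 3307), Sema3c, a guidance ligand (28.2 to 6405), the growth factor gene Igf1 (2.28 to 2539), the Wnt antagonist gene Sfrp2 (8.46 to 3138) and the Notch ligand gene Jag1 (5.70 to 6204). Of the 86, all from the genes the study had called different between the tissues, 41 were missing from at least 1 VMP cell. Vcan, for example, was read in 41 VMP cells and Sema3c in 34. Only 39 of the 561 stood at 100 CPM or more in the lowest SU cell, 6 of them with a symbol (Col1a1, Col3a1, Sparc, Vkorc1, Dcn and Lum). After thinning to 199849 counts a cell, 292 genes were left in all cells, 44 with a symbol. With at least 5 reads asked of each cell there were 200.

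Being read in every cell did not always mean a high level. Of the 561, 117 had a median under 50 CPM, 9 of them with a symbol. Perp had a range of only 3.66 to 60.7 CPM with quartiles of 15.4 and 31.4, and was read in all 49 VMP cells at a median of 29.6. Other genes came close to this. Jund, an AP-1 subunit, ranged from 0 to 71.8 CPM (quartiles 20.2 and 43.6), and Dsg3, a desmosomal cadherin of stratified epithelium, from 0 to 30.0 (quartiles 5.58 and 13.9, reads in 64 SU and 49 VMP cells). Fgf10 and Ebf3 had the same low floor in SU, with medians of 7.62 and 9.01 CPM and reads in 65 and 66 cells, beneath 111 and 38.5 CPM in VMP. These genes were singled out after their values were seen. Detection alone was not taken as expression of the gene for them, and the source of the low, even reads was not tested.

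Markers of epithelium, leukocytes, nerve, blood and smooth muscle had summed medians near 0, and pericyte, skeletal muscle and endothelial genes were higher in some cells. Of 17 epithelial genes, Cdh1, Krt8, Krt17, Krt19, Cldn7, Grhl2, Rab25 and Esrp1 had no read in the 66 cells (0 of 66 allows a share of up to 4.55% of cells with a read), and Epcam reached at most 2.19 CPM in 8 cells. The summed epithelial level ranged from 0 to 133 CPM with a median of 2.16, and the most widely read member, Ovol1, was read in 33 cells and never above 7.92 CPM. Leukocyte (2 genes matched of 15, summed 0 to 846 CPM), neural and Schwann (3 of 15, 0 to 1644), erythroid (3 of 12, 0 to 226) and smooth muscle lists (3 of 16, 0 to 299) had medians of 0, 0, 0 and 1.58 CPM. Their highest cells each rested mainly on 1 gene (Cd14, Stmn2, Alas2 and Des) and held Dcn at 734 to 7211 CPM. Both smooth muscle genes that could be compared were higher in the summed VMP cells. Des was 12.5-fold higher, with 16 VMP and 5 SU cells at 100 CPM or more, and Lmod1 4.36-fold. With 3 of 16 genes matched, the smooth muscle list cannot show whether smooth muscle cells were among the captured cells. The 16 skeletal muscle genes summed to 0 to 1406 CPM (median 41.1), and Myf5, an early myogenic factor, was at 100 CPM or more in 7 SU cells and in no VMP cell, with no cell holding 3 members at 100 CPM. The 3 pericyte genes summed to a median of 47.3 CPM, with a member at 100 CPM or more in 28 cells. Abcc9 was read in 55 cells (median 23.5, highest 2516 CPM, 25 cells at 100 CPM or more), Rgs5 in 12 and Kcnj8 in 15, and all 3 reached 100 CPM in 1 cell.

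Endothelial genes were high together in a few cells. Cdh5, the adhesion molecule of endothelial junctions, ranged from 0 to 2805 CPM with a median of 3.65, and Emcn, an endothelial sialomucin, from 0 to 3967 with a median of 3.43. Of the 5 endothelial genes matched of 15 (Cdh5, Kdr, Flt1, Tie1, Emcn), no member reached 100 CPM in 51 cells, at least 1 did in 15 cells, and 3 or more did in 5 cells. These 5 cells are the C1 cell numbers 24, 43, 63, 66 and 81. Cell 66 had Emcn at 3967, Flt1 at 1705, Tie1 at 649, Kdr at 551 and Cdh5 at 267 CPM, and cell 43 had Emcn at 2261, Cdh5 at 1672 and Kdr at 1006. Matrix reads were still present. In cell 66, Lum stood at 3661 and Col1a1 at 2267 CPM, with Dcn at 158, the lowest Dcn of all SU cells. In cell 63, Dcn stood at 858 CPM while Lum (110) and Col1a1 (1835) were the lowest of all SU cells. Cell 24 held Dcn at 2725 and cell 81 Col1a1 at 14147 CPM, within the range of the other cells. Whether these 5 chambers held 1 cell of mixed profile, more than 1 cell or RNA carried over was not tested, no cell was removed as a doublet, and the counts below are also given without these cells. In VMP, 2 of 49 cells had 3 or more of the genes at 100 CPM.

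**Figure D2:**
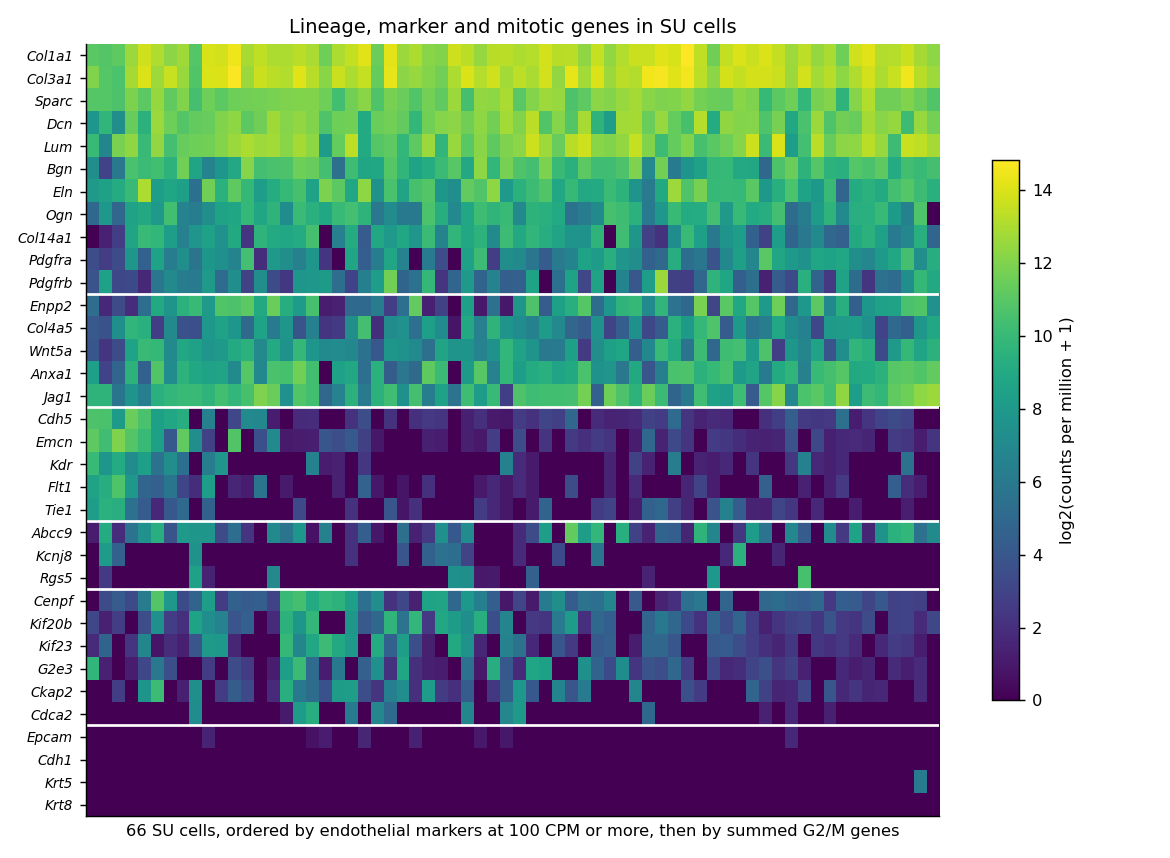
Levels of 34 genes (rows) in the 66 SU cells (columns) as log2(CPM + 1), cells ordered by how many of 5 endothelial genes reach 100 CPM and then by the summed G2/M genes. From the top, the blocks hold matrix and receptor genes, SU markers with Anxa1 and Jag1, endothelial, pericyte, mitotic and epithelial genes. The top matrix rows are bright in every column, the endothelial block is bright in the leftmost columns, and the epithelial block is dark except for Krt5 in 1 cell and traces of Epcam.

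Variation among the cells was measured by the squared coefficient of variation (CV2, variance over the squared mean) of CPM. CV2 falls with the mean, also for the spike-ins, whose spread is technical, so a gene was called variable where its CV2 was at least 2 times that of the spike-in trend and at least 2 times that of genes of like mean, with and without the cell highest for it. Of 8672 genes with a mean of 10 CPM or more, 398 were called (4.59%), and of the 1438 with a symbol 90 (6.26%). The line is an arbitrary one: C1qtnf3 (2.00 times) lay just inside, and Tstd3 (1.98 times) just outside. Most called genes were off in many cells and high in a few. Of the 398, 239 were read in 33 cells or fewer, against 3678 of the 8672 tested, and 9 were read in every cell, against 560 of those tested. Among these 9 only Hsph1, a heat shock protein gene (10.8 to 10145 CPM, median 812), has a symbol.

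The 12 named genes with the largest variation ratio had reads in 5 to 56 cells and 100 CPM or more in 2 to 17. Camk1d, a calcium/calmodulin-dependent kinase, was 4.65 times its reference, with reads in 16 cells and 2 cells at 100 CPM or more (highest 1927). Phex, an endopeptidase best known from phosphate handling, had 4 such cells of 26 with a read (highest 2144 CPM, ratio 4.22), and Plcb4, a phospholipase C, 5 of 56 (highest 2724, ratio 4.20). Emcn followed (ratio 4.14), with 10 cells at 100 CPM or more, as did Tspan12, a tetraspanin that acts with Norrin and Fzd4 (ratio 3.99, 10 of 38 cells). Zfp263 (4 of 16 cells), Etv5, an ETS factor downstream of FGF signalling (2 of 5), Slc46a3 (4 of 14), Lats2, a Hippo pathway kinase (17 of 53), Xdh (7 of 33), Lrrc4c (2 of 9) and Ldhd (3 of 20) had ratios between 3.37 and 3.91.

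Genes of known stromal and signalling roles stood among the other 78 called. Enpp2 itself was just past the line (CV 1.33, ratio 2.03), the only one of the 4 markers that was, and its call was lost by spike-in totals, with TMM factors, after thinning and without the 5 cells with endothelial genes. Pdgfrb was called (ratio 2.65, 25 cells at 100 CPM or more), as were the Wnt antagonist gene Apcdd1 (highest 3383 CPM), the R-spondin gene Rspo2 (29 cells, 2 at 100 CPM or more), Tgfbr3, a TGF-beta coreceptor (22 cells, 5 at 100 CPM or more), Lrat, which esterifies retinol (median 9.26, highest 3411 CPM), and Cyp1b1 (median 17.1, highest 6404 CPM). By spike-in totals the calls of Pdgfrb, Apcdd1, Rspo2, Tgfbr3 and Cyp1b1 were lost and that of Lrat was kept. Of the 26 matrix genes 0 were called, which is near the share of 6.26% over genes with a symbol, and Eln (ratio 1.92) lay just outside the line. The CV2 of Col1a1 was 6.48 times that of spike-ins of its level but 0.465 times that of genes of like mean, and for Sparc the values were 2.69 and 0.355. The calls leaned on the scaling. By spike-in totals, 430 genes were called, and 179 of the 398 were among them. With TMM factors there were 435 (331 shared), after thinning 373 (351 shared), and without the 5 cells with 3 or more endothelial genes 361 (328 shared). Of the 12 genes above, 11 were called in each of these settings, all but Lats2, which was lost by spike-in totals.

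**Figure D3:**
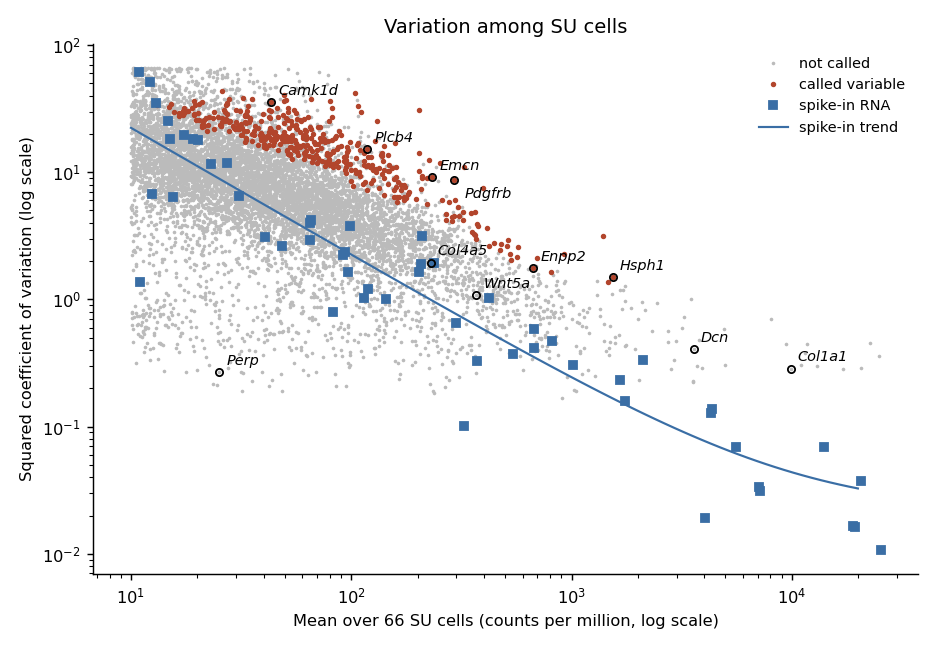
CV2 against the mean CPM over 66 SU cells for 8672 genes, both axes on a log scale, with the spike-ins as squares and their fitted trend as a line. The 398 called genes lie along the upper edge of the cloud, as the rule requires. Col1a1 and Dcn lie above the spike-in line but inside the cloud, and Perp far beneath both.

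Principal components of all 8672 genes ordered the cells first by the RNA they gave. The first component held 5.99% of the variance and, over the 66 cells, had a correlation of -0.91 with the share of spike-in reads and 0.65 with the number of genes detected, against 0.33 with the log2 total. Its leading named genes were Casc4, Sptssa, Taldo1 and Pls3 at the end of low spike-in share and Lats2, Ypel3, Rere, Ednra and Wwc3 at the other. The second component (2.79%) had little correlation with depth (0.06 with the log2 total, 0.09 with the spike-in share) and -0.22 with genes detected. It ran from the endothelial genes Cdh5, Emcn, Flt1 and Clec14a, with Cyp1b1, to genes of replication and mitosis, Pclaf, Spc25, Kif23 and Kif20b, with LOC100359539. Not all cells at the mitotic end were mitotic. Cells 28, 39, 41 and 44 scored 0.12 to 0.15 with summed G2/M genes of 53.1 to 172 CPM. Scores also went with the C1 cell number, as all SU cells numbered 27 to 45 but cell 43 had positive scores. The source of that pattern was not tested. The third (2.65%) had Qser1, Glis2, Dchs1, Dnm1 and Pappa2 at one end and Tmed3, S100a16, Crip1, Etfb and Cyp7b1 at the other, and a correlation of 0.43 with genes detected.

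Restricted to the 398 called genes, the first component (4.82%) was led by Cdh5, Emcn, Tspan12, Gbp2 and Cyp1b1 at one end and LOC100359539, Tmem126b, Zfp68, Xdh and Usp28 at the other, with a correlation of 0.20 with the spike-in share. The second (3.97%) moved with genes detected (0.60) and the spike-in share (-0.56), with Lats2, Prom1, Enpp2, Zfp263 and Tmem204 opposite Zfp68, Casc4 and Nckap1. Enpp2 led the third (3.45%), beside Lss, Kcnd3, Tgfbr3 and Tmem204. Without the 5 cells with endothelial genes the first component held 4.58% and then moved with the spike-in share (-0.59). With spike-in scaling the first component of all 8672 genes held 14.3% in place of 5.99%, and its correlation with the spike-in share was -0.93.

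**Figure D4:**
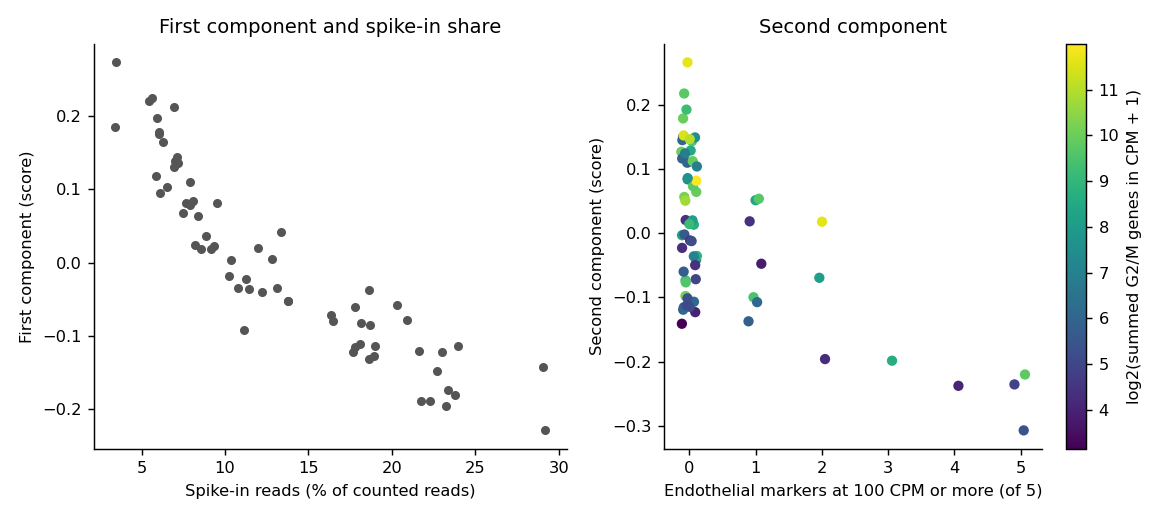
Left, the first component of all 8672 genes against the share of spike-in reads, 1 point for each of 66 SU cells. Scores fall steadily as the share rises, with a correlation of -0.91. Right, the second component against the number of endothelial genes at 100 CPM or more, coloured by the summed G2/M genes. The 5 cells with 3 or more such genes lie at the low end.

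Pairs of genes were compared over the 66 cells by Pearson's r of log2(CPM + 1), as a description without a p, since the cells share 1 pool, 1 chip and the depth differences above. The strongest pair looked at was Col1a1 with Col3a1 (r = 0.86, and 0.82 in the 61 cells without 3 or more endothelial genes), the chains of the main fibrillar collagens. Other matrix pairs were looser, with 0.43 for Col1a1 with Sparc, 0.44 for Dcn with Lum and 0.32 for Col1a1 with Dcn. With spike-in scaling these were 0.68, 0.67 and 0.69, so how loose they look depends on the scaling. Without the 5 cells Col1a1 with Dcn had 0.10. Among the 4 markers, Enpp2 had r = 0.34 with Dcn, 0.23 with Wnt5a and -0.05 with Col4a5. Wnt5a had 0.31 with Dcn (0.43 with spike-in scaling, 0.16 without the 5 cells) and 0.03 with Col4a5, and Col4a5 with Dcn had -0.06.

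For each marker, the 3 named genes with the most similar pattern were taken from the 848 read in 33 or more SU cells. Jag1 was nearest to Enpp2 (r = 0.61, also 0.62 without the 5 cells and 0.64 with spike-in scaling), followed by the glutathione transferase gene Gstm1 (0.44) and Aldh1a2, which makes retinoic acid (0.42). Nearest to Col4a5 were Sfrp1 (0.43, median of only 1.49 CPM), the guidance ligand gene Slit2 (0.38) and Laptm4b (0.37). Nearest to Wnt5a were Mme, the membrane metalloprotease neprilysin (0.43), Col1a1 (0.40) and Runx1t1 (0.39), and the last 2 were 0.21 and 0.24 without the 5 cells. Nearest to Dcn were Lgals1, a galectin (0.57), Col14a1 (0.54) and Dhrs7 (0.52), and without the 5 cells these were 0.39, 0.46 and 0.51. Jag1 itself was among the higher signalling genes of SU cells, from 5.70 to 6204 CPM with a median of 1070, and its VMP median was 12.1.

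**Figure D5:**
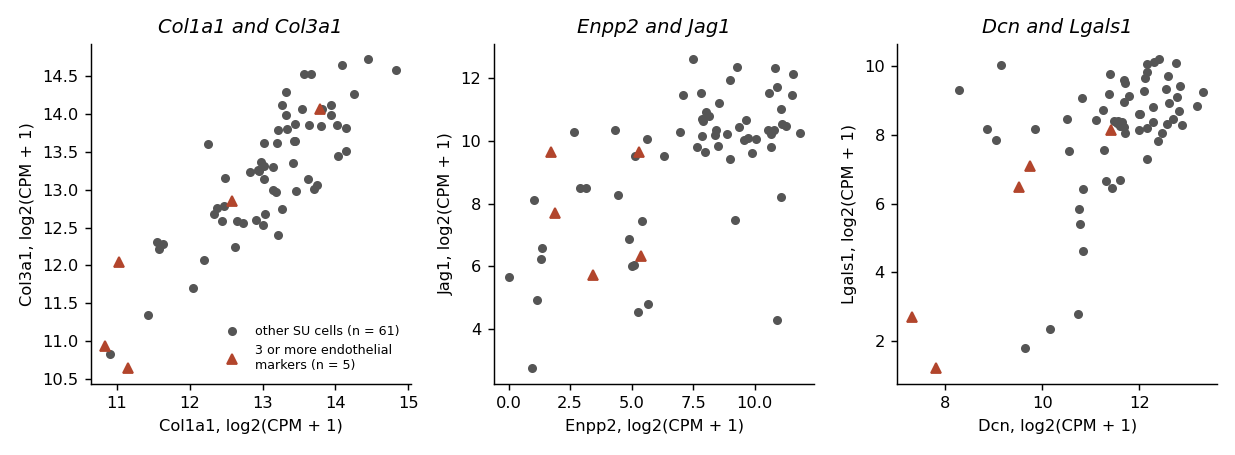
Col1a1 against Col3a1, Enpp2 against Jag1 and Dcn against Lgals1 in the 66 SU cells, as log2(CPM + 1), with the 5 cells that hold 3 or more endothelial genes at 100 CPM as triangles. Col1a1 and Col3a1 lie along a line (r = 0.86). Cells with high Enpp2 mostly have high Jag1 (r = 0.61), and 2 of the triangles have the lowest Dcn with low Lgals1.

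Mitotic genes marked another small set of cells. Of 52 G2/M genes, 8 had a symbol here: Cenpf and Cenpa of the centromere, the spindle and cytokinesis genes Ckap2, Kif20b and Kif23, Cdc20, which activates the anaphase-promoting complex, Cdca2, and the ubiquitin ligase gene G2e3. Their sum ranged from 7.87 to 4091 CPM over SU cells (median 160) and from 0 to 3608 in VMP cells (median 5.78). Cenpf was read in 59 SU cells, with a median of 20.5 and a highest value of 1844 CPM, and after thinning in 54 SU and 13 VMP cells. At least 3 of the 8 stood at 100 CPM or more in 13 SU cells and in 1 VMP cell, and at least 4 in 6 SU cells. These 6 kept their matrix genes, with Dcn from 2854 to 5468 and Col1a1 from 2743 to 11248 CPM. Only a few pairs were looked at: Kif23 had r = 0.47 with Cdca2 and 0.40 with Kif20b, and Cenpf 0.46 with Ckap2. Some sums rested mainly on 1 gene, as in cell 30 (Kif20b at 921 of 948 CPM) and cell 59 (G2e3 at 601 of 640). Of the 7 with a mean of 10 CPM or more (all but Cenpa) 0 were called variable, near the share of 6.26% over genes with a symbol, and 4 of these 7 were at least 2-fold higher in the summed SU cells, against 32.3% of genes with a symbol.

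Promoters of such genes commonly carry a CHR element (TTTGAA), bound by the complexes that time G2/M transcription, often near a CCAAT box (CCAAT). Both were searched on both strands in 300-base RefSeq promoters (250 bases before to 50 after the start, build GRCr8). The search was made after some pairs of these genes had been seen to correlate. TTTGAA was in 18.3% of all 33469 promoters and in each of the 7 of these 8 genes that had an entry (not Cdca2). CCAAT was in 37.5% of all and in 6 of the 7, all but G2e3. The only TTTGAA of Cenpf lies after the start. A match is a description of letters, not a bound site. The 130 bases before the start are shown for 4 of them, 5′ to 3′ on the strand of the gene, with both motifs in capitals (ATTGG is CCAAT on the other strand). For Cdc20 (chr5:137255800-137255929, minus strand) TTTGAA begins 51 bases before the start, for Kif23 (chr8:71320585-71320714, minus strand) 79, for G2e3 (chr6:74499456-74499585, plus strand) 71, and for Ckap2 (chr16:76541984-76542113, plus strand) 126.
Cdc20: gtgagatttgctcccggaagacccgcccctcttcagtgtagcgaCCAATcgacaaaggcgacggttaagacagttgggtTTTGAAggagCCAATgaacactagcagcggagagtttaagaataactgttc
Kif23: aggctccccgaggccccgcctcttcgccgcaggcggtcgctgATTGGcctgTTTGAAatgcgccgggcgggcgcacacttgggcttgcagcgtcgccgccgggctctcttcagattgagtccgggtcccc
G2e3: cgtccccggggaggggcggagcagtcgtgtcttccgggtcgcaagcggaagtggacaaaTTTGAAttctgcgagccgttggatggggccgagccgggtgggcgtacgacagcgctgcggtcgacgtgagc
Ckap2: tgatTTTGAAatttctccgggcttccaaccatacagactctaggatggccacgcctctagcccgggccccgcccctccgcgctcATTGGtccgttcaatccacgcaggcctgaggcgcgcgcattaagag

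Signalling pathways were followed with fixed lists of which only some members had a symbol. Among Wnt ligands and R-spondins (6 of 14 matched), Wnt5a was the only one read in every SU cell. Wnt4 was read in 59 cells at a median of 5.00 CPM, and Wnt2b and Wnt6 in 1 cell each. Rspo2 and Rspo3 were low in SU, with reads in 29 and 2 cells against 47 and 19 in VMP. Of the receptors (4 of 18), Ror2, a receptor for Wnt5a, was read in 27 SU cells (highest 495 CPM) and 7 VMP cells. Of the inhibitors (8 of 12), Sfrp2 was in all 66 cells (median 410 CPM, 223 in VMP), Dkk3 in 49 with a ratio of sums of 29.6, and Apcdd1 in 58 (25 VMP cells), while Sfrp1 was higher in VMP (ratio 0.177). Axin2, a common target of β-catenin signalling, was read in 37 SU cells with a median of 1.17 CPM.

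Of 14 matched genes of BMP and TGF-beta signalling, 5 of the 13 compared were at least 2-fold higher in SU and 5 in VMP, against 32.3% and 24.5% of genes with a symbol, so the SU count is near that share. The ligand genes Bmp2, Bmp4 and Bmp7 were read in 52, 51 and 34 SU cells, with medians of 15.1, 17.5 and 0.778 CPM. Their targets Id2 and Id3 were in all 66 cells (medians 379 and 391 CPM). The ratios of sums over VMP differed, with 2.34 for Id1, 1.01 for Id2, 3.26 for Id3 and 1.21 for Id4. The BMP antagonist genes Chrd and Chrdl1 were read in 16 SU cells each, and Chrdl1 in 48 of 49 VMP cells. In the Notch list (7 of 14) the ligand gene Jag1 and the target gene Hes1 (median 71.4 CPM, 1.83 to 420) were in every SU cell, with ratios of 4.95 and 6.30. Heyl, another target, was read in 42 SU and 6 VMP cells, and the non-canonical ligand gene Dlk1 in 25 SU and 37 VMP cells. Of the hedgehog genes (6 of 15), the target genes Foxf1 and Gli1 were read in 64 and 30 SU cells and in 38 and 3 VMP cells. Of the FGF genes (6 of 15), Fgf10, a mesenchymal ligand for epithelial budding, reached 100 CPM in 2 SU cells and in 25 VMP cells (ratio of sums 0.0454).

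Retinoic acid genes (9 of 15) were led by Aldh1a2, in all 66 cells from 0.772 to 2048 CPM with a median of 197 (91.5 in VMP, ratio 0.959), while the degrading enzyme genes Cyp26a1 and Cyp26b1 were read in 2 and 15 SU cells. In the IGF list (5 of 11), Igf1 was in all cells of both tissues (medians 289 and 571 CPM), Igf2 was lower in SU (median 105 against 831 CPM, ratio 0.334), and the binding protein gene Igfbp2 was higher (ratio 5.98). Beside Enpp2, which makes lysophosphatidic acid, the receptor gene Lpar1 was read in 65 SU cells (median 145 CPM) and the phosphatase gene Plpp3, which removes it, in 62 (median 115). Of 13 guidance genes (of 27), Sema3c, Epha3 and Efnb2 were in every SU cell (medians 519, 430 and 216 CPM), with ratios of 18.3, 5.75 and 2.54. Their lowest SU cells stood at 28.2, 2.61 and 1.52 CPM, and after thinning Epha3 and Efnb2 were read in 65 and 64 cells. Slit2 was read in 65 SU cells (median 230, ratio 3.04), whereas the Slit receptor gene Robo2 was higher in VMP (median 45.2 against 437 CPM).

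Urogenital transcription factors were the group with the most members lower in SU. Of the 15 matched of 32, 10 of 14 compared were at least 2-fold higher in VMP, against 24.5% of genes with a symbol, and none in SU, with a median log2 ratio of -1.85. Meis1 and Meis2 had medians of 14.2 and 40.3 CPM in SU against 581 and 560 in VMP. Hoxd13 (median 56.9 CPM, highest 2722, reads in 55 cells) and the LIM factor gene Isl1 (median 76.4, highest 2657, reads in 65) had ratios of 1.95 and 1.97.

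Immediate early and stress genes were present throughout. Of 8 matched early response genes (of 24), Fos (5.47 to 2722 CPM, median 747), Dusp1 (1.52 to 2118, median 306) and Cyr61 (5.00 to 1903, median 202) were in every SU cell, and in VMP cells the Fos median was 576. Klf4 was in 65 cells with a ratio of 5.42. Over SU cells Fos had r = 0.33 with Fosb, 0.14 with Cyr61 and -0.04 with Dusp1. Hspa1a, which shares its symbol with a second gene ID and so may split reads with a near-identical copy, was read in all 66 cells (median 162 CPM, 3.65 in VMP). The part of the digestion in these levels was not tested.

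The named genes with the largest ratios of SU over VMP among those read in 33 or more SU cells were Sox5, a SoxD transcription factor (86.7 CPM in the summed SU cells against 2 counts in all VMP cells, ratio 1292 with an interval of 358 to 10675), LOC100360330, an unprocessed pseudogene whose reads may belong to its parent gene (1006), F3, tissue factor of the clotting cascade (280), Ndp, which encodes Norrin (261), Cpq (253), Htra4, a serine protease (192), and Ahr, the aryl hydrocarbon receptor (136). Fam102a, Sall1 and Bmp7 had no count in VMP cells and, against a floor of 3 counts over the group, were at least 176-fold, 182.5-fold and 161-fold higher. Ahr differed from the others in its level, with reads in 65 SU cells, a median of 525 CPM and a highest value of 4075, against 14 VMP cells with a highest value of 154. The rest had medians of 0.778 to 6.22 CPM over SU cells, so their ratios rest on a part of the cells. In the other direction, Linc00176 had 1 count in all SU cells, and VMP was 9049-fold higher, with an SU over VMP interval of 2.8e-06 to 0.000616. Tnfsf13b, the B cell factor BAFF, was 997-fold higher in VMP, Pgm5 101-fold, Dcx, which binds microtubules, 56.7-fold, and Nmur2, without a count in SU, at least 190-fold. These folds come from cells of 1 pool a tissue and have no replicate check.

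The summed SU cells were set beside the SU bulk libraries, 1 each. Across 7777 genes with 10 CPM or more in both, the summed cells and the RNA-seq of a pool of dissociated SU cells had r = 0.77 (rho = 0.70) of log2(CPM + 1). With the VMP RNA-seq r was 0.67 (7731 genes), and with the summed VMP cells 0.78 (7291 genes, rho = 0.71). The gene sets differ. Between the 2 RNA-seq pools, r of the SU cells was higher with SU (0.77) than with VMP (0.67). The r with the summed VMP cells was no lower than with the SU pool, but those cells share the single-cell library type. In that comparison tissue and library type cannot be told apart. Genes are not independent replicates, so no p is given. Enpp2 was at 2297 CPM in SU RNA-seq and 649 in the summed cells, Wnt5a at 525 and 368, Col4a5 at 224 and 209, and Dcn at 5742 and 3772, so each was higher in the pool. Ahr was the reverse, at 98.6 CPM in the pool and 626 in the summed cells. The 17 epithelial genes summed to 289 CPM in the pool against a median of 2.16 over the cells, and the 26 matrix genes to 68091. The Tag-seq of undissociated SU tissue had r = 0.28 with the summed cells over 5249 genes. It counts a short tag in place of the whole transcript, so its levels per gene were not compared further.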

How the data were processed

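Single-cell RNA-seq of 66 SU and 49 VMP cells of newborn female rats was used, with the SU and VMP RNA-seq and Tag-seq libraries, 1 each. The authors deposited counts of reads per Ensembl gene (Rnor_6.0), without normalization. For the cells, the submitters' processing notes name Trimmomatic 0.33, TopHat, Picard 1.128, SAMtools and HTSeq. Amplification duplicates were removed, and there were no molecular tags, so uneven amplification stays in the counts. The 95 spike-in rows stayed out of library sizes.

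Groups came from the sample titles. CPM, CV2, the spike-in trend (gamma regression of CV2 on the inverse mean over spike-ins with a scaled mean of at least 1), a running median over 201 genes of like mean, components and ratios of summed counts were computed in Python 3.11.15 (numpy 2.4.6, pandas 2.3.3, scipy 1.17.1, matplotlib 3.10.9), and TMM factors with edgeR 4.0.16 in R 4.3.3. At the ends of the range the running median rests on fewer genes, mostly to 1 side of the gene. With 1 pool a tissue no test was made. CV2 cannot exceed the number of cells, which leaves genes of low mean little room to be called. The variation rule, the ratios, the components and the thinning were tested on simulated data. There the variation rule recovered 49.5% of the genes given a raised CV2. It recovered 86.7% of those with a mean of 100 CPM or more and 38.7% of those under it, so genes not called may still vary. These shares hold only for the size of raise that was simulated. Recovery was not measured separately for genes near the line of 2 times, so the shares are not the sensitivity of the rule there. Doublets were not removed, and all deposited cells were used, of which 64 of 66 lay within 3 MADs of the SU medians.

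Gene names, lengths and coordinates came from the study's annotation tables of genes it called different between the tissues, in the parts used here. Named are the 4 markers, members of lists where discussed, the 10 highest per kilobase, the 12 with the largest variation ratio, the 10 highest and 5 lowest ratios of SU over VMP, the 3 genes nearest to each marker, and the 5 genes at each end of a component, of which some are given. Genes with low, even reads were added after their values were seen, as were the examples among called genes and among genes read in every cell. Members and lists were chosen with earlier results of these data known. Promoters came from RefSeq (GRCr8), and 7 of the 8 mitotic genes matched.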

Additional observations from a re-analysis of the deposited data

How the results depend on the processing

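No paired analysis was possible because no result comes from a test, and the cell numbers that SU and VMP cells share (33 of them) are chamber numbers of separate captures. Genes read in all SU cells went from 561 to 292 after thinning to 199849 counts and to 200 with at least 5 reads, both stricter by construction. Asking for 3 times in place of 2 times both references left 80 of 398 variable genes. The first component of the called genes held 8.53% in place of 4.82% with spike-in size factors, and that of all 8672 genes 14.3% in place of 5.99%. Without a filter beyond 1 read, 4770 genes were at least 2-fold higher in SU and 4204 in VMP, and at 4-fold 1100 and 1029. The correlation of summed SU cells with the SU RNA-seq pool was 0.81 with at least 1 CPM in both. Cells that held 50% or more of a list's members went, at 10 CPM in place of 1 read, from 45 to 17 (fibroblast identity), 20 to 2 (smooth muscle), 18 to 11 (pericyte), 4 to 1 (skeletal muscle), 45 to 10 (endothelial), 18 to 8 (leukocyte), 9 to 2 (neural and Schwann) and 5 to 0 (erythroid), and after thinning to 36 (fibroblast identity), 6 (smooth muscle), 1 (skeletal muscle), 22 (endothelial), 4 (neural and Schwann) and 2 (erythroid). Leaving out the 5 cells with 3 or more endothelial genes, chosen after seeing the data, moved none of the 5 counts and shares it was run on by 1.5 times. Low counts limit genes under about 10 CPM, where 1 read in the shallowest cell is 5.00 CPM, and 1 pool per tissue limits every comparison.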
